A study of Mus musculus with 2 samples.

Results

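The Schlafen family was examined in bone marrow neutrophils that had been exposed to tumor exosomes. The family was represented by 7 genes, Slfn1, Slfn2, Slfn3, Slfn4, Slfn5, Slfn8 and Slfn9, which were found by name among the 35522 features listed in both expression tables. CD11b-positive, Ly6G-high, Ly6C-low neutrophils were sorted from the marrow of Balb/C mice, which the study obtained at 5 to 8 weeks of age, and were kept in culture with GM-CSF (10 ng/ml) for 3 days. One culture (labelled PBS-treated) received PBS and the other (labelled ELV-treated, here exosome-treated) received tumor exosomes at 20 μg/ml. These exosomes came from sphere-derived cancer stem cells (SDCSCs), spheroids of the murine colorectal cancer line CT26. Both cultures were therefore under GM-CSF, and whether either library pooled several mice is not stated. Each treatment had 1 library, so there is no replicate error for any difference given here, and no test was made.

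Schlafen proteins are found in vertebrates and are known for roles in the growth arrest and quiescence of immune cells, in myeloid differentiation and in defence against viruses. All share an N-terminal Schlafen core. The short members end soon after it, the intermediate members carry a linker domain, and the long members add a C-terminal part that resembles helicases. Many Schlafen genes are induced by interferons, the cytokines that switch on antiviral genes through JAK kinases, STAT proteins and IRF factors, and several Schlafen proteins can cut tRNA.

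The members lie in 1 cluster on chromosome 11, which RefSeq (GRCm38.p6) places over 335 kb from the start of Slfn5 to the end of Slfn14. Coding sequences in GENCODE M21 (GRCm38) were 1011 bases for Slfn1 and 1134 for Slfn2 (short), 1920 for Slfn3 and 1806 for Slfn4 (intermediate), and 2652 for Slfn5 and 2730 for both Slfn8 and Slfn9 (long). Slfn8 and Slfn9 were identical at 92.7% of 2730 aligned coding bases, and Slfn3 and Slfn4 at 92.3% of 1785. The next closest pair, Slfn2 and Slfn3, reached 76.9%. Slfn8 and Slfn9, and Slfn3 and Slfn4, were thus the closest pairs in coding sequence, which makes their reads hard to assign. Transcripts of Slfn2 and Slfn4 also shared 69 stretches of 50 bases and 2 of 100. How the authors treated reads that match several genes is not stated.

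Promoter sequences were taken from RefSeq (GRCm38.p6), in which windows from 250 bases before to 50 bases after the transcription start were scanned on both strands. The core of the interferon-stimulated response element, the DNA element bound by STAT and IRF factors, was searched as GAAA, any pair of bases and GAAA again. It occurred once in each window of Slfn5, Slfn8 and Slfn9, the long members examined, and in no window of Slfn1, Slfn2, Slfn3 or Slfn4. The window of Slfn14, a gene of the cluster outside the members examined, was also scanned and held no response element core. The structural group of Slfn14 was not examined. Of 32851 promoter windows in the mouse genome, 3.44% held the response element core. The gamma-activated sequence core, TTCNNNGAA, occurred in 8.30% of all windows and in none of the members. A match describes these letters alone, and an absent match says nothing about binding. The 250 bases before the start are shown for the long members, with the response element core in capitals, and for Slfn4, the member with the highest RPKM in both libraries, for contrast. The sequence of the C57BL/6J reference is given, whereas the cells came from Balb/C mice.
Slfn5, chr11:82951852-82952101, plus strand: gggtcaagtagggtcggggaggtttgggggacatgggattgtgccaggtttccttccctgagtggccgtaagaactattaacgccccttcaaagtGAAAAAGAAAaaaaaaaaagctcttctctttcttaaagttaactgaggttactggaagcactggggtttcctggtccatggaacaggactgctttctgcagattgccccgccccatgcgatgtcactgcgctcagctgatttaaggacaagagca
Slfn8, chr11:83020811-83021060, minus strand: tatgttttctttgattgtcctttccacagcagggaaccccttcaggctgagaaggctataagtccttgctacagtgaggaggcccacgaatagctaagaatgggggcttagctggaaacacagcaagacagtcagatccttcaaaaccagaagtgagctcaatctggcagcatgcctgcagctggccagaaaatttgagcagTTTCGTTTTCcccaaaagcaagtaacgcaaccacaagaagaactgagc
Slfn9, chr11:82991831-82992080, minus strand: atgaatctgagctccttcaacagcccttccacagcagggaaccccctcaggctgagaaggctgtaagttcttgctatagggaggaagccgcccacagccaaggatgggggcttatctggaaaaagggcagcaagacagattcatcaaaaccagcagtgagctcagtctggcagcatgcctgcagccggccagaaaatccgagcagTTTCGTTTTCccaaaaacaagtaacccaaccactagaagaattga
Slfn4, chr11:83174936-83175185, plus strand: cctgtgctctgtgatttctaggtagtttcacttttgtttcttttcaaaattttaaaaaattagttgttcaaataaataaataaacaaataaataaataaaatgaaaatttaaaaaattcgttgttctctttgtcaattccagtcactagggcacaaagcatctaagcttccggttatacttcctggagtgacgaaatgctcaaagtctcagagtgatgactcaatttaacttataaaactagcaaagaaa
The RefSeq start used for Slfn5 lies 753 bases inside the gene as GENCODE bounds it, so its window overlaps the gene. The core began 155 bases before this start in Slfn5, 48 bases before it in the Slfn8 window shown and 45 bases before it in Slfn9. A second RefSeq start of Slfn8 lies downstream, and the same core then began 136 bases before it. The upstream sequences of Slfn8 and Slfn9 were identical at 85.1% of 242 aligned bases, against 69.8% for the next closest pair, Slfn1 and Slfn2.

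Levels were read as the RPKM values that the authors deposited, which scale reads by exon length and library depth. Genes with an RPKM of 0.25 or more in both libraries were kept. Those whose RPKM was 2-fold or more higher with exosomes were called up, and those whose RPKM had dropped to 0.5 times or less were called down. All 7 members were kept. Of these, 4 were called up (Slfn4, Slfn5, Slfn8 and Slfn9), 0 were called down and 3 stayed within 2-fold (Slfn1, Slfn2 and Slfn3). Among all 9698 features kept, 31.5% were called up and 5.62% down. The ratio was above 1 for 5 of 7 members and for 73.0% of all features kept. The median log2 ratio of exosome to PBS was 1.10 over the 7 members and 0.53 over all features kept. Since the median of all features was not at 0, each member is also given against features of its own level below. With this median subtracted from every ratio, 1634 features were called up and 1282 down in place of 3056 and 545, and 2 members, Slfn5 and Slfn8, were then called up and 1, Slfn1, down. In RNA of whole cultures, more cells of a type and more RNA per cell cannot be told apart.

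The 95% counting interval given with each ratio is an exact Clopper-Pearson interval of estimated reads (estimated depth 65.97 M reads in the PBS library, 79.14 M in the other). It covers counting error only, not differences between cultures or mice.

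The intermediate member Slfn4, which is expressed in cells of the myeloid lineage and is inducible by type I interferon, had the highest RPKM of the family in both libraries. Slfn4 (ENSMUSG00000000204.16, chromosome 11, 83175186 to 83190216, plus strand) stood at 563.74 RPKM with PBS and at 1209.28 RPKM with exosomes. It ranked 52nd of all features in the PBS table and 20th in the exosome table. Its ratio was 2.15 and its log2 ratio 1.10, with a counting interval of 1.09 to 1.11, so the 2-fold limit was passed by a small margin. The 500 features nearest in level, whose geometric means reached from 95.4 to 5341 RPKM, had a median log2 ratio of 0.0015, and 10.0% of them were at least 2-fold higher with exosomes. After median centring of the libraries its log2 ratio was 0.57, below the limit.

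Slfn3 (ENSMUSG00000018986.10, chromosome 11, 83191330 to 83215154, plus strand) lies directly beside Slfn4 and is known for a role in the differentiation of intestinal epithelium. It was low, at 0.88 RPKM with PBS and 1.44 with exosomes, a log2 ratio of 0.71 with a counting interval of 0.43 to 0.99. The value for Slfn3 was not called and lay below the median of 1.05 of the 500 features nearest in level. Its RPKM was 641 times below that of Slfn4 with PBS and 840 times below it with exosomes. In estimated reads, Slfn3 held 0.112% and 0.0853% of the number of Slfn4. The transcripts of Slfn4 shared 252 stretches of 50 bases with those of Slfn3 and 0 stretches of 100 bases. The part of shared reads in the value of Slfn3 was not tested.

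The short members were high and slightly lower with exosomes. Slfn2 (ENSMUSG00000072620.3, chromosome 11, 83065112 to 83070678, plus strand), whose loss in mice breaks the quiescence of T cells and monocytes, stood at 358.16 RPKM with PBS and 322.18 with exosomes. Its log2 ratio was -0.15, with a counting interval of -0.17 to -0.13. Slfn1 (ENSMUSG00000078763.2, chromosome 11, 83116849 to 83122670, plus strand), which slows the growth of thymocytes when overexpressed, stood at 295.92 RPKM with PBS and 206.47 with exosomes. Its ratio of PBS to exosome was 1.43 and its log2 ratio was -0.52, with a counting interval of -0.54 to -0.50. Neither was called, and both ratios lay outside counting error of 1. The 500 features nearest in level had median log2 ratios of 0.0071 for Slfn2 and 0.0094 for Slfn1. Their geometric means spanned a wide range, from 93.8 to 1232 RPKM for Slfn2 and from 89.7 to 677 RPKM for Slfn1. Both short members therefore stood below the median of these high features, whereas Slfn4 stood above the median of its own set. Under median centring Slfn1 reached -1.05 and was called down.

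Slfn5 and Slfn8, both long members, had the highest ratios of the family, whereas Slfn9 lay within counting error of Slfn4. Slfn5 (ENSMUSG00000054404.13, chromosome 11, 82951349 to 82964840, plus strand), whose human counterpart is an interferon-inducible nuclear protein that regulates transcription, stood at 11.33 RPKM with PBS and 81.34 with exosomes. The ratio was 7.18 and the log2 ratio 2.84, with a counting interval of 2.80 to 2.89. Among all features kept, 192 (1.98%) had a higher ratio. The 500 features nearest in level had a median log2 ratio of 0.21, and 13.0% of them were at least 2-fold higher with exosomes. The antisense gene Slfn5os, which overlaps Slfn5 and appears under its older name 1700003F17Rik, was listed at 0 in both libraries.

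Slfn8 (ENSMUSG00000035208.16, chromosome 11, 83002158 to 83020810, minus strand) stood at 13.91 RPKM with PBS and 49.81 with exosomes. The ratio was 3.58 and the log2 ratio 1.84, with a counting interval of 1.79 to 1.89 and 1067 of all features kept had a higher ratio. The median at its level was 0.26. Slfn9 (ENSMUSG00000069793.12, chromosome 11, 82978390 to 82991830, minus strand), its near-identical neighbour, was low, at 0.57 RPKM with PBS and 1.28 with exosomes. The log2 ratio of Slfn9 was 1.17 (counting interval 0.94 to 1.40), so counting error alone spans the limit of a call. At this level the median of the nearest 500 features was 1.09 and 52.4% of them were at least 2-fold higher, so the call of Slfn9 was that of most features as low as it. Estimated reads of Slfn9 were 5.89% of those of Slfn8 with PBS and 3.696% with exosomes, and the pair shared 389 stretches of 50 bases and 50 stretches of 100 bases. The summed reads of the pair gave a log2 ratio of 1.81. In the long group, Slfn5 and Slfn8 therefore stood above features of similar level and Slfn9 did not.

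**Figure D1:**
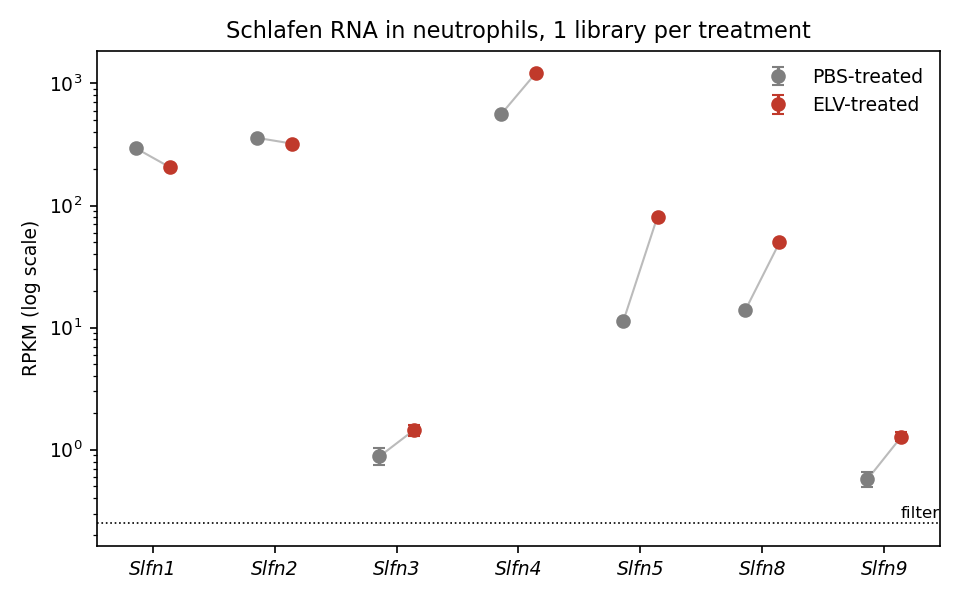
RPKM (log axis) of the 7 Schlafen genes in the PBS-treated (grey) and ELV-treated (red) library, with exact Poisson 95% intervals of the estimated reads and a dotted line at the filter of 0.25. Slfn4, Slfn2 and Slfn1 lie above 200 in both libraries, Slfn5 and Slfn8 between 11.33 and 81.34, and Slfn3 and Slfn9 near 1.

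**Figure D2:**
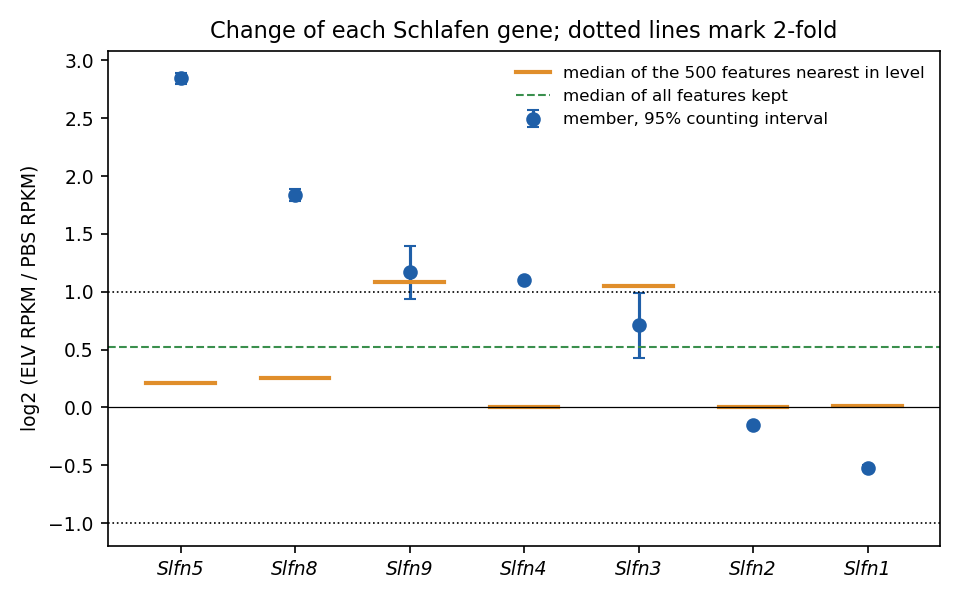
Log2 ratio of exosome to PBS RPKM for each Schlafen gene (blue points, 95% counting intervals), the median of the 500 features nearest in level (orange bars) and the median of all features kept (green dashed line at 0.53). Slfn5, Slfn8 and Slfn4 lie above both references and the 2-fold line, Slfn9 lies at the median of its level, and Slfn2 and Slfn1 lie below 0.

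The order of the members was compared between the libraries next. With PBS, levels ran from Slfn4 through Slfn2, Slfn1, Slfn8, Slfn5 and Slfn3 to Slfn9, and no neighbours in this order had overlapping exact Poisson 95% intervals. With exosomes Slfn5 and Slfn8 had changed places, and Slfn5 stood 1.63 times above Slfn8, in contrast to 0.81 times with PBS. Slfn3 (interval 1.29 to 1.61 RPKM) and Slfn9 (1.18 to 1.39) then overlapped. Slfn4 was 1.57 times as high as Slfn2 with PBS and 3.75 times as high with exosomes.

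The summed RPKM of the 7 members was 1245 with PBS and 1872 with exosomes, a ratio of 1.504 and a log2 ratio of 0.59. This sum was 0.347% of all RPKM in the PBS table and 0.540% in the exosome table. Slfn4 held 45.3% of the summed family RPKM with PBS and 64.6% with exosomes. The share of Slfn2 was 28.8% with PBS and 17.2% with exosomes, and that of Slfn1 was 23.8% and 11.03%. Together the short members held 52.6% with PBS and 28.2% with exosomes. They thus held most of the summed RPKM with PBS, and Slfn4 held most of it with exosomes. The long members held 2.07% and 7.08%, the highest ratio of the groups (5.13, against 2.14 for the intermediate and 0.81 for the short members). Within a library these shares do not depend on scaling between libraries. They are shares of RPKM, which is scaled by length. In estimated reads with PBS, Slfn4 (147207) already exceeded Slfn2 (39319) and Slfn1 (36391) together. After median centring the log2 ratio of the family sum was 0.062.

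**Figure D3:**
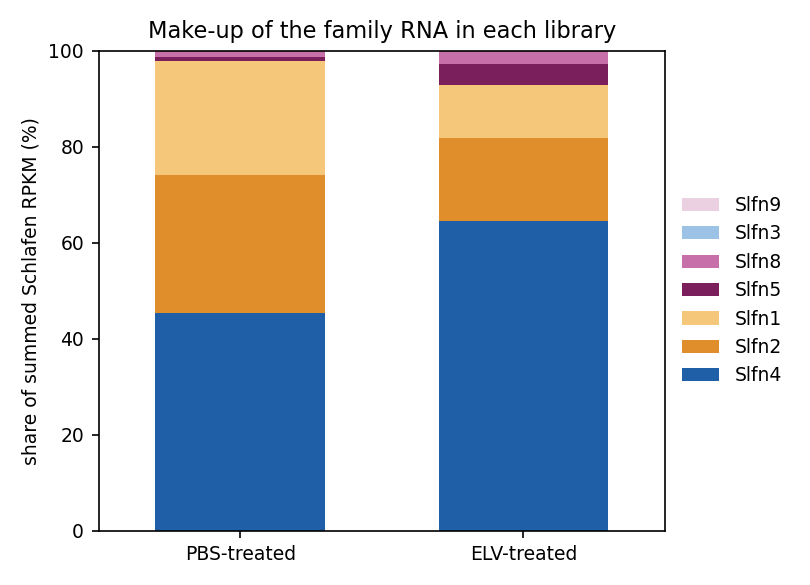
Share of the summed Schlafen RPKM (percent) held by each member in the PBS-treated and the ELV-treated library. Slfn4 (blue) takes 45.3% and 64.6%, the short members Slfn2 and Slfn1 (orange) shrink from 52.6% to 28.2% together, and Slfn3 and Slfn9 are too thin to see.

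Other Schlafen-named features and the genes around the cluster were examined to see whether the pattern extended to them. The pseudogene Slfn10-ps, which lies between Slfn8 and Slfn2, stood at 1.58 RPKM with PBS and 0.58 with exosomes, a log2 ratio of -1.45 (counting interval -1.72 to -1.18), and was called down. It therefore differed in direction from Slfn8 beside it. Slfn14, listed as Slfn14-ps, was at 0.00818 and 0.01 RPKM, or about 2 and 3 estimated reads, and no ratio is given. Slfnl1, a related gene on chromosome 4, was listed at 0 with PBS and 0.01 with exosomes. Of the 10 flanking features (5 on each side), 5 were kept, 1 was called up and 0 were called down. Of all features kept, 31.5% were called up and 5.62% down. Nle1, a ribosome assembly gene, went from 0.33 to 0.95 RPKM (log2 ratio 1.53). Ap2b1, a subunit of the clathrin adaptor, had a log2 ratio of 0.66. Rffl, a ubiquitin ligase gene, and Rad51d, a DNA repair gene listed as Rad51l3, had log2 ratios of -0.43 and -0.08. Fndc8 and Unc45b stayed below 0.01 RPKM, and AA465934, AI450353 and Snord7 were listed at 0 in both libraries. By the deposited RPKM, direction thus differed along the cluster. Slfn5, Slfn9 and Slfn8 at one end were higher with exosomes. Slfn10-ps, Slfn2 and Slfn1 in the middle were lower, and Slfn4 and Slfn3 beyond them were higher. For the low members Slfn9 and Slfn3 this did not exceed features of their level, since level-matched centring gave log2 ratios of 0.080 and -0.34.

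**Figure D4:**
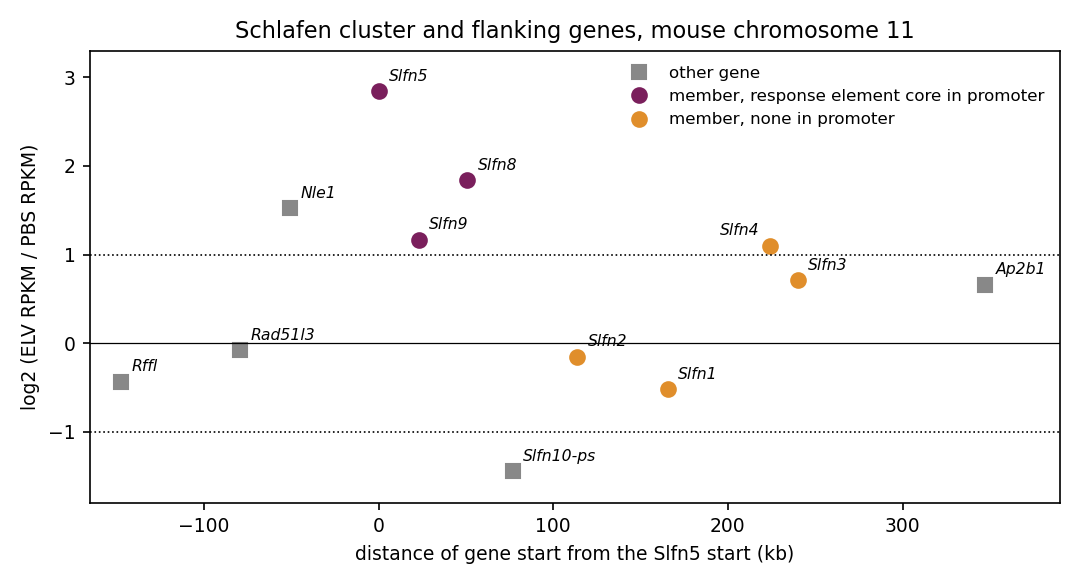
Log2 ratio of exosome to PBS RPKM against the distance of each gene start from the start of Slfn5 (kb) on chromosome 11, for the genes kept whose log2 ratio is given in the text, with members in purple where the promoter window holds the response element core, in orange where it does not, and other genes as grey squares. The purple genes Slfn5, Slfn8 and Slfn9 lie at one end with log2 ratios of 1.17 to 2.84. The lowest of these, Slfn9, is near the median of 1.09 of features of its level. Slfn10-ps is the lowest gene at -1.45, and Slfn4 at 1.10 is the orange gene above the 2-fold line.

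Because Schlafen genes are interferon-inducible, the interferon pathway was followed by role, from 71 genes that were all found in the tables. Of 57 kept, 36 (63.2%) were called up and 0 down, with a median log2 ratio of 1.40, beside 31.5% up and a median of 0.53 over all features. Of these 36, 30 were effector targets. The receptors, transducers and inhibitors had 6 of 21 called up (28.6%), beside 31.5% of all features kept. That share of all features differed by level. It was 52.4% among the 500 features nearest to Slfn9, 13.0% among those nearest to Slfn5 and 10.0% among those nearest to Slfn4. No share at their own level was taken for the 21 genes. With median centring 27 of the 57 were called up, beside 16.8% of all features kept. With level-matched centring 30 were called up, beside 12.5% of all features kept. The interferon ligands were barely present. Ifna1, Ifna2, Ifna4, Ifna5, Ifna6 and Ifne were listed at 0 in both libraries and Ifnk at 0 and 0.02 RPKM. Ifnb1 stood at 0.04 and 0.03 RPKM, Ifnz at 0.02 and 0.00864, and Ifng at 0.19 and 0.12, with PBS and exosomes respectively, so none of the 10 ligands was kept.

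Of 4 receptor chains, Ifngr1, a chain of the interferon gamma receptor, was called up (47.6 and 113.81 RPKM). Ifnar1, Ifnar2 and Ifngr2 had log2 ratios of 0.29, -0.18 and 0.57. Of 10 signal transducers, 3 were called up. Irf7, the factor that amplifies type I interferon responses, went from 22.55 to 136.1 RPKM (log2 ratio 2.59). Irf9, a DNA-binding factor of the type I interferon response, had a log2 ratio of 1.25 and the kinase gene Tyk2 one of 1.02. Irf3 and Jak2 had log2 ratios of 0.51 and 0.25, and Jak1, Irf1 and Irf5 of -0.39, -0.38 and -0.71. Of 7 feedback inhibitors, Usp18, which removes ISG15 and blocks the type I receptor, went from 5.33 to 36.44 RPKM (log2 ratio 2.77), close to the 2.84 of Slfn5. Socs3, an inhibitor of JAK kinases, was also called up (log2 ratio 1.71). Ptpn6, Ptpn2 and Socs1 had log2 ratios of 0.97, 0.74 and 0.32, and Irf2 and Pias1 both had -0.23.

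Among effector targets of interferon, 36 of 40 were kept, 30 (83.3%) were called up and 0 down, with a median log2 ratio of 1.95, beside 31.5% up and 5.62% down over all features. Zbp1, a sensor of Z-form nucleic acid, had the highest value (0.34 and 6.11 RPKM, log2 ratio 4.17). Oas1g, an oligoadenylate synthetase, and Bst2, which tethers budding viruses, followed with 3.58 and 3.40. Oas1g belongs to a family of near-identical copies, which makes its value uncertain. At the other end Cxcl10, a chemokine, stood at -0.37 and Samd9l, an antiviral gene, at -0.15. Of the 36 kept, 7 had a higher log2 ratio than Slfn5, 20 a higher one than Slfn8 and 29 a higher one than Slfn4, and 0 had a lower one than Slfn1. These 5 lists were written with earlier results of these data known.

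**Figure D5:**
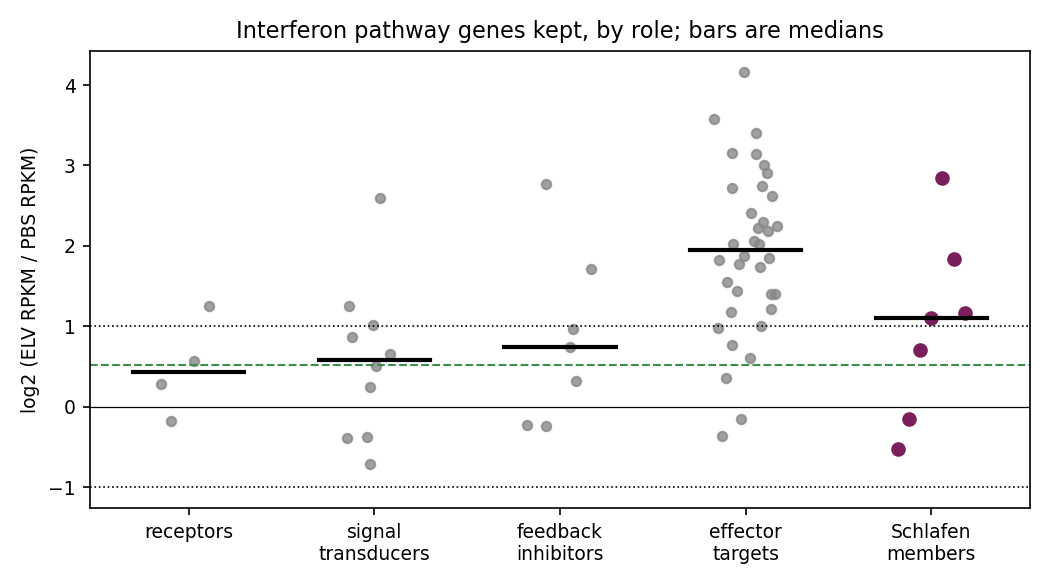
Log2 ratio of exosome to PBS RPKM of the interferon pathway genes kept, by role, and of the 7 Schlafen genes (purple), with medians as black bars, the median of all features kept as a green dashed line (0.53) and the 2-fold limits dotted. The median is 1.95 for effector targets and 1.10 for the Schlafen genes, which span -0.52 to 2.84.

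Markers of cell types moved between the libraries as well. Of 12 neutrophil markers 10 were called down, against 5.62% of all features, and their summed RPKM was 84902 with PBS and 30855 with exosomes. S100a8 and S100a9 made up 75882 and 28216 RPKM of these sums, and the other 10 markers summed to 9020 and 2639. Of 12 monocyte and macrophage markers 7 were kept, of which 4 were called up (Adgre1, Csf1r, C1qb and C1qc) and 1 down (Ly6c2), against 31.5% up and 5.62% down of all features, and their summed RPKM was 349 with PBS and 500 with exosomes. Adgre1, which encodes F4/80 and was listed as Emr1, stood at 20.91 and 151.51 RPKM, whereas Mertk and Cx3cr1 were at most 1.39 RPKM in either library. No marker of these 2 lists was at 0. Summed markers of dendritic cells (32.2 and 20.0 RPKM) and B cells (108 and 66.9) were lower with exosomes. The sum for T or NK cells (58.7 and 8.76) was almost all Cd3d (56.44 and 7.02), while Lck stood at 0.95 and 0.93 RPKM, Cd3e at 0.06 and 0.04 and Klrb1c at 0.01 and 0.51. Those of erythroid (1.55 and 0.115) and epithelial cells (0.59 and 0.196) were near 0. The part of a change in cell types or maturity in the Schlafen values was not tested.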

How the data were processed

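Poly(A) RNA of 2 neutrophil cultures was sequenced on a HiSeq 2500. The authors trimmed reads at a Phred score of 20, analysed them with CLC Genomics Workbench 8.0, and deposited RPKM per feature, 1 table a sample. The build was mm10 per the submitters' processing notes. The gene annotation, the handling of reads matching several genes and any scaling between samples are not given in the sources used here. Values above 0.01 were rounded to 0.01, and 25 features carried a bare number as name and were never named. Sorted cells had a purity above 80% by the study's methods.

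Members were matched by exact name. Fold changes are log2 of the exosome over the PBS RPKM with no pseudocount. Mapped reads were estimated from single-read values below an RPKM of 0.01 and the longest GENCODE M21 transcript: 184 of 918 such features in PBS and 227 of 1064 with exosomes gave the same total, and the ratio of depths was 1.20 with or without lengths. Estimated reads served for counting intervals and for comparing reads between members, and the authors' exon models may differ. Level-matched medians used the 500 features nearest in mean log2 RPKM. Identities were computed over aligned bases with Biopython 1.88, and intervals with SciPy 1.17.1 under Python 3.11.15. Scripts were tested on simulated data. With 1 library per group no replicate test exists. Members and gene lists were chosen with earlier results of these data known. Genes named were all members, all features whose names start with Slfn, every gene of a list of 10 or fewer, the 3 highest and 2 lowest of longer lists, and the nearest gene of each member over both libraries. Values of a few genes of these lists are not reported here, though the counts and medians include them. Other scalings, filters, pseudocounts and folds were tried.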

Additional observations from a re-analysis of the deposited data

How the results depend on the processing

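Of 92 values recomputed under another setting, 53 stayed within the counting interval, or within 1.5 times for counts, 39 moved and 0 called values changed sign. Some of the 53 were ratios that could not move. Neither a minimum of 1 RPKM nor another exon length for the counting interval changes the ratio of a member kept. Under median centring the log2 ratios were -1.05 for Slfn1, -0.68 for Slfn2, 0.18 for Slfn3, 0.57 for Slfn4, 2.32 for Slfn5, 1.31 for Slfn8 and 0.64 for Slfn9, with 0.062 for the family sum. After subtracting a trimmed mean (30% of ratios and 5% of means dropped at each end) they were -1.06, -0.69, 0.17, 0.56, 2.30, 1.30 and 0.63 in the same order, and 0.047 for the sum. Both settings left 2 members called up (Slfn5 and Slfn8), 1 down (Slfn1) and 1 interferon pathway gene down (Irf5). Of all features kept, 16.8% and 16.4% were then called up, and 13.2% and 13.6% down, in the same order of settings. Level-matched centring gave -0.34 for Slfn3, which changed its sign, 2.63 for Slfn5, 1.58 for Slfn8 and 0.080 for Slfn9. It left 2 interferon pathway genes down (Irf5 and Cxcl10), beside 13.7% of all features kept. Rescaling to TPM gave -0.47 for Slfn1, -0.11 for Slfn2, 1.15 for Slfn4, 2.89 for Slfn5 and 0.64 for the sum. A pseudocount of 0.25 gave 0.90 for Slfn9. A pseudocount of 1 gave 0.38 for Slfn3, 2.74 for Slfn5, 1.77 for Slfn8 and 0.54 for Slfn9. At a ratio of at least 4, 1 member (Slfn5) and 20 interferon pathway genes were called up, beside 8.52% of all features kept. Slfn5 and Slfn8 stayed at least 2-fold higher under all of the scalings and pseudocounts tried. The cause of these shifts was not tested.

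Depth limits Slfn3 and Slfn9 most, with about 165 and 217 estimated reads in PBS. No paired analysis was possible because each group has 1 library, and no replicate was left out for the same reason. A minimum of 1 RPKM gave no value for Slfn3 and Slfn9, which it removed.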

Other observations

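Since several Schlafen proteins cut tRNA, other enzymes that cut tRNA or protect it were also read, from a list of 10 genes. Of 9 kept, 6 were called up and 1 down, beside 31.5% up and 5.62% down of all features kept. The median log2 ratio was 1.74, beside 0.53 over all features kept. These genes were not set against features of their own level, and the share of features called up depended on level. It was 52.4% among the 500 features nearest to Slfn3 and 13.0% among those nearest to Slfn5. With PBS, Elac2, Trmt1 and Trdmt1 stood at 0.73, 0.94 and 2.29 RPKM, and Rnaset2a, Rnh1 and Rnaset2b at 55.9, 40.23 and 11.46. The tRNA methyltransferase gene Nsun2 stood at 1.54 RPKM with PBS and 9.4 with exosomes (log2 ratio 2.61). The methyltransferase genes Trmt1 and Trdmt1 had log2 ratios of 2.08 and 1.33. Elac2, which trims the end of tRNA precursors, had one of 1.74 and its relative Elac1 one of 0.19. Rnaset2a and Rnaset2b, near-identical lysosomal ribonuclease genes whose reads are hard to separate, had 2.28 and 2.33. Rnh1, which encodes the ribonuclease inhibitor, had 0.68. Ang was at 0.01 and 0.04 RPKM and was not kept.

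The gene nearest to each member was found by the distance between pairs of log2 RPKM over the 2 libraries. It was Csf2ra, a chain of the GM-CSF receptor, for Slfn1 (distance 0.090), Cotl1 for Slfn2 (0.065), Mcm5 for Slfn3 (0.035), B2m for Slfn4 (0.091), Ppia for Slfn5 (0.25) and Nmt1 for Slfn8 (0.018). For Slfn9 it was Dusp28, whose values of 0.57 and 1.28 RPKM were the same as those of Slfn9. Slfn5 had the most distant nearest gene. These distances rest on 2 libraries and describe levels alone.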
